A study of Homo sapiens with 18 samples.

Results

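This account describes 10 genes of the epidermal growth factor receptor (EGFR) and MET signalling system after loss of fibrillarin. They are the receptors EGFR, ERBB2 and MET, the ligands AREG, EREG, HBEGF, TGFA and NRG1, and the inhibitors ERRFI1 and LRIG1. The members were chosen by name, with earlier results of these data known. All 10 were found by symbol among the 17017 genes of the deposited gene table. The cells were MDA-MB-231, an established line of triple-negative breast carcinoma, grown with serum and human insulin. All groups had been transduced with lentivirus and selected with puromycin. The SC group is read here as the scramble control, and the SH2 and SH3 groups carry different short hairpin RNAs against the mRNA of fibrillarin (gene symbol FBL), the enzyme that places 2'-O-methyl groups on ribosomal RNA. The labels do not say which hairpin of the protocol is SH2 and which is SH3. Cells were treated with cycloheximide, which halts elongating ribosomes, and each lysate gave input cytoplasmic RNA (IN) and ribosome-protected footprints (RPF) from monosomes, with 3 replicates of each kind in each group, or 18 libraries. Nothing in the labels says that the replicates were separate cultures, so the p-values measure the spread between these libraries only.

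EGFR and ERBB2 belong to one family of receptor tyrosine kinases, and MET to another. AREG, EREG, HBEGF and TGFA are made as membrane-bound precursors that are cut free and bind EGFR, while NRG1 binds ERBB3 and ERBB4, which pair with ERBB2. ERRFI1 binds the kinase domain of EGFR and blocks it, and LRIG1 promotes the breakdown of ERBB receptors. MDA-MB-231 is known for high EGFR and for the absence of oestrogen and progesterone receptors and of ERBB2 amplification.

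Levels are given as CPM, the counts of a gene scaled to a common library size with factors from the trimmed mean of M-values (TMM), within each library kind. Changes are log2 values from edgeR's quasi-likelihood test, and a gene is called when its p-value, adjusted over all genes tested by the Benjamini-Hochberg method, is under 0.05. IN libraries held 23469830 to 27629488 counts and RPF libraries 1662705 to 6098648, so footprint values are the less precise. The targeted gene FBL had a mean RNA level of 388 ± 36.4 CPM in the SC libraries, 5.67 ± 5.09 CPM in those of SH2 and 3.49 ± 0.612 CPM in those of SH3 (mean ± SD, n = 3). SH2 replicate 3 was the highest hairpin library at 11.2 CPM, while SH2 replicates 1 and 2 stood at 1.26 and 4.52 CPM, so the order of the hairpin means rests on it. Among the markers of mesenchymal triple-negative lines, 5 of 6 were above 1 CPM on average in every group (SPARC was not), and their summed RNA level was 6985 to 8937 CPM in SC, 8149 to 9221 CPM in SH2 and 6307 to 7319 CPM in SH3. VIM made up most of this sum (5579 CPM on average in SC, 6581 in SH2 and 4704 in SH3), and the other markers did not follow one direction: mean AXL was 1487, 872 and 1289 CPM, CAV1 163, 108 and 72.5 CPM, and CD44 316, 507 and 336 CPM, in the order SC, SH2, SH3. Of the 8 luminal markers, 5 were above 1 CPM on average in SC and 4 in each hairpin group, and ESR1, PGR and CDH1 were under it in every group. The list's sum was 976 to 1100 CPM in SC, 997 to 1257 in SH2 and 1127 to 1317 in SH3. KRT8 and KRT18 made up most of it. In the order SC, SH2, SH3, mean KRT8 was 530, 441 and 528 CPM and KRT18 494, 654 and 680 CPM. The summed leukocyte markers stayed at or under 4.63 CPM and the endothelial markers at or under 4.04 CPM in all IN libraries. The part of these differences in the results was not tested.

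Transcripts of EGFR and of 3 of its ligands rose in both knockdowns, and that of its inhibitor ERRFI1 fell. In SH2 RNA 5 members rose and 1 fell, against a background in which 61.4% of all 12710 genes tested were called (31.1% higher and 30.4% lower). In SH3 RNA 7 rose and 1 fell, where 53.0% of all genes were called (27.8% higher and 25.2% lower). EGFR, AREG, EREG and HBEGF rose under both hairpins and ERRFI1 fell under both, which is 50% of the members, against 37.9% of all genes called alike in both (19.6% higher and 18.2% lower). Both comparisons use one set of SC libraries and so share its chance deviations. Since the list was chosen with earlier results known, its shares in RNA and footprints are not an independent comparison with those of all genes. The members' median RNA change was 0.33 in SH2 and 0.70 in SH3 on the log2 scale, and the median over all genes was 0.01 and 0.03.

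**Figure D1:**
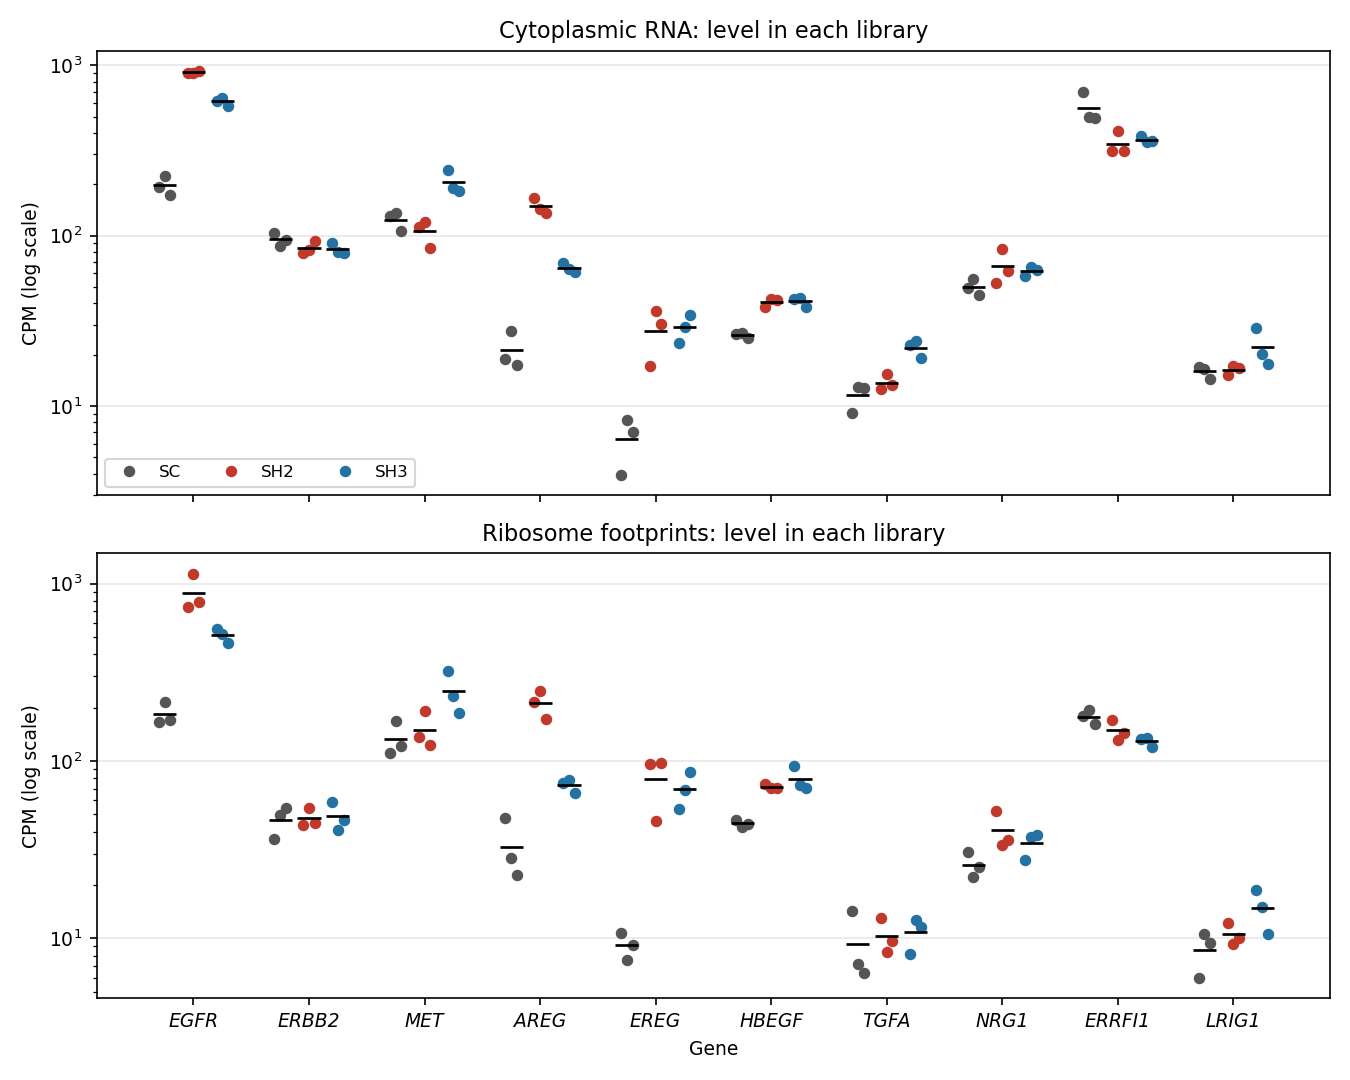
RNA (top) and footprint (bottom) levels of the 10 genes, in CPM on a log axis, with 1 point per library and a bar at the mean of each group of 3. EGFR RNA lies between 174 and 225 CPM in SC, between 904 and 928 in SH2 and between 581 and 646 in SH3, and the ERBB2 points of the 3 groups overlap.

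EGFR rose the most of the 3 receptors. Its RNA stood at 193, 225 and 174 CPM in SC replicates 1, 2 and 3, at 904, 904 and 928 CPM in SH2, and at 618, 646 and 581 CPM in SH3. The 3 groups did not overlap, with SC lowest, SH3 between and SH2 highest. The fitted change was 2.21 in SH2, or 4.62-fold (SE 0.11, adjusted p 1.35e-08, edgeR), and 1.64 in SH3, or 3.12-fold (SE 0.10, adjusted p 1.05e-07, edgeR). In these bulk libraries more cells expressing a gene and more RNA per cell cannot be told apart. Among all genes tested, the EGFR change lay at the 99.1st percentile of signed RNA changes in SH2 and at the 98.6th in SH3. Footprints of EGFR, which come from ribosomes on its mRNA, had the same order of groups. They stood at 166, 214 and 171 CPM in SC, 740, 1142 and 786 CPM in SH2, and 554, 518 and 461 CPM in SH3. Again no SC library reached the lowest hairpin library. EGFR footprints rose by 2.28 (SE 0.17, adjusted p 2.67e-07, edgeR) in SH2 and by 1.48 (SE 0.17, adjusted p 1.54e-05, edgeR) in SH3. In the authors' deposited table, the log2 fold change of EGFR is 2.19 for SH2 and 1.62 for SH3 in RNA, and 2.29 and 1.49 in footprints.

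ERBB2, the partner receptor with no known ligand of its own, did not pass the threshold in any comparison. Its RNA stood at 104, 87.2 and 94.4 CPM in SC, 79.2, 82.7 and 92.9 CPM in SH2, and 90.2, 80.7 and 79.3 CPM in SH3. The 3 groups overlapped in RNA, and likewise in footprints, where all 9 libraries lay between 36.5 and 59.1 CPM. For ERBB2 the RNA change was -0.17 in SH2 (SE 0.10, adjusted p 0.172, edgeR) and -0.19 in SH3 (SE 0.10, adjusted p 0.125, edgeR). The footprint changes of ERBB2 were 0.04 (SE 0.19) and 0.05 (SE 0.19).

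MET, the receptor of hepatocyte growth factor, rose in SH3 and was not called in SH2. MET RNA stood at 130, 136 and 107 CPM in SC, at 113, 121 and 84.9 CPM in SH2, and at 243, 191 and 184 CPM in SH3. SH2 overlapped SC, and every SH3 library lay above both. The RNA change of MET was 0.73 in SH3 (SE 0.14, adjusted p 0.000765, edgeR) and -0.23 in SH2 (SE 0.14, adjusted p 0.181, edgeR). MET footprints stood at 111, 169 and 122 CPM in SC, 137, 191 and 123 CPM in SH2, and 320, 234 and 187 CPM in SH3. SH3 lay above SC here too, although its lowest library was under the highest of SH2. The footprint change of MET was 0.89 in SH3 (SE 0.21, adjusted p 0.00423, edgeR) and 0.18 in SH2 (SE 0.21, adjusted p 0.503, edgeR). The MET ligand HGF had 0 counts in every IN library other than SH3 replicate 3, which had 1 count.

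In footprints as a whole, 5 members rose and the other 5 were not called in SH2, where 44.2% of 10345 genes tested were called (21.0% higher and 23.2% lower). In SH3 6 rose and 1 fell, where 35.9% were called (16.9% higher and 19.0% lower). Footprints of EGFR, AREG, EREG and HBEGF rose under both hairpins, which is 40% of the members, against 22.9% of all genes called alike in both (10.8% higher and 12.0% lower). The members' median footprint change was 0.46 in SH2 and 0.80 in SH3, beside medians over all genes of -0.0042 and -0.014.

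Among the ligands, AREG (amphiregulin) had the highest RNA change in SH2. Its RNA stood at 18.9, 27.6 and 17.3 CPM in SC, at 167, 144 and 137 CPM in SH2, and at 69.4, 63.9 and 60.9 CPM in SH3. The groups were fully separate, with SH3 between SC and SH2, the same order as for EGFR. AREG RNA rose by 2.81 in SH2, or 7.01-fold (SE 0.16, adjusted p 1.91e-08, edgeR), and by 1.61 in SH3, or 3.05-fold (SE 0.15, adjusted p 2.30e-06, edgeR). AREG footprints stood at 47.7, 28.2 and 22.9 CPM in SC, 214, 249 and 173 CPM in SH2, and 74.9, 78.4 and 65.9 CPM in SH3. These groups were separate as well, and SC replicate 1 was the highest SC library. The footprint change of AREG was 2.67 in SH2 (SE 0.23, adjusted p 5.85e-07, edgeR) and 1.13 in SH3 (SE 0.23, adjusted p 0.00135, edgeR).

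EREG (epiregulin), a ligand of EGFR and ERBB4, rose by similar amounts under both hairpins. EREG RNA stood at 3.92, 8.24 and 7.0 CPM in SC, at 17.1, 35.9 and 30.1 CPM in SH2, and at 23.4, 29.2 and 34.2 CPM in SH3. All 6 hairpin libraries lay above all SC libraries, and the hairpin groups overlapped each other. For EREG the RNA change was 2.12 in SH2 (SE 0.28, adjusted p 1.77e-05, edgeR) and 2.18 in SH3 (SE 0.28, adjusted p 2.38e-05, edgeR). Footprints of EREG stood at 10.7, 7.58 and 9.23 CPM in SC, from 18 to 66 counts, at 95.9, 45.7 and 97.4 CPM in SH2, and at 53.9, 68.5 and 86.2 CPM in SH3. All hairpin libraries again lay above all SC libraries, and SH2 replicate 2 was the lowest of them. EREG footprints rose by 3.06 in SH2, or 8.35-fold (SE 0.28, adjusted p 1.22e-06, edgeR), and by 2.89 in SH3, or 7.41-fold (SE 0.29, adjusted p 3.71e-06, edgeR). By absolute size the footprint change of EREG ranked 24 among 10345 genes in each hairpin. The authors' deposited table gives EREG footprint log2 fold changes of 3.09 in SH2 and 2.91 in SH3.

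HBEGF, the heparin-binding ligand of EGFR, rose by a smaller amount under both hairpins. Its RNA stood at 26.4, 26.8 and 25 CPM in SC, at 38.3, 42.3 and 41.6 CPM in SH2, and at 42.3, 43.2 and 38.0 CPM in SH3. The highest SC library lay below the lowest hairpin library. For HBEGF the RNA change was 0.65 in SH2 (SE 0.10, adjusted p 6.07e-05, edgeR) and 0.66 in SH3 (SE 0.10, adjusted p 7.76e-05, edgeR). Footprints of HBEGF went from 46.6, 42.5 and 44.2 CPM in SC to 74.1, 70.6 and 70.6 CPM in SH2 and 93.7, 72.9 and 70.8 CPM in SH3. The change was 0.69 (SE 0.15, adjusted p 0.00139, edgeR) and 0.82 (SE 0.15, adjusted p 0.000583, edgeR), and the SC libraries again lay below all others.

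TGFA, the ligand transforming growth factor alpha, rose in SH3 RNA and was not called in SH2 RNA or in footprints. TGFA RNA stood at 9.02, 12.9 and 12.7 CPM in SC, at 12.5, 15.3 and 13.2 CPM in SH2, and at 22.8, 24.0 and 19.2 CPM in SH3. SH2 overlapped SC, and SH3 lay above both. For TGFA the RNA change was 0.93 in SH3 (SE 0.15, adjusted p 0.000183, edgeR) and 0.25 in SH2 (SE 0.15, adjusted p 0.176, edgeR). Footprints of TGFA stood at 14.3, 7.16 and 6.39 CPM in SC, 13.0, 8.39 and 9.71 CPM in SH2, and 8.20, 12.7 and 11.6 CPM in SH3. These values come from 14 to 88 counts per library, and the 3 groups overlapped. The footprint change was 0.20 in SH3 (SE 0.32, adjusted p 0.658, edgeR) and 0.09 in SH2 (SE 0.31, adjusted p 0.847, edgeR).

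NRG1, the neuregulin that binds ERBB3 and ERBB4, changed the least among the called ligands. NRG1 RNA stood at 49.2, 55.3 and 44.5 CPM in SC, 52.4, 83.1 and 62.2 CPM in SH2, and 58.0, 65.7 and 62.6 CPM in SH3. SH2 replicate 1 lay within the SC range, and SH2 replicate 2 was the highest library. The RNA change of NRG1 was 0.41 in SH2 (SE 0.14, adjusted p 0.0246, edgeR) and 0.32 in SH3 (SE 0.14, adjusted p 0.0753, edgeR). The SH3 value passed the threshold with plain library totals, with no filter, with only the groups compared and without SC replicate 2 (adjusted p 0.0304 to 0.0484). The SH2 call was lost without SC replicate 1 (adjusted p 0.0520), SC replicate 3 (0.103) or SH2 replicate 2 (0.162, with a change of 0.20). Footprints of NRG1 stood at 30.7, 22.3 and 25.2 CPM in SC, 52.2, 33.8 and 35.9 CPM in SH2, and 27.5, 37.3 and 38.2 CPM in SH3. SH2 lay above SC and SH3 overlapped it. The NRG1 footprint change was 0.61 in SH2 (SE 0.20, adjusted p 0.0231, edgeR) and 0.40 in SH3 (SE 0.21, adjusted p 0.154, edgeR), and the SH2 call was lost without SC replicate 2 (adjusted p 0.0518), SC replicate 3 (0.0734) or SH2 replicate 1 (0.123).

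ERRFI1, the inhibitor of the EGFR kinase whose own gene is switched on by receptor signalling, fell in RNA under both hairpins. Its RNA stood at 695, 498 and 494 CPM in SC, at 313, 412 and 315 CPM in SH2, and at 385, 353 and 361 CPM in SH3. All hairpin libraries lay below all SC libraries, and SC replicate 1 was the highest. ERRFI1 RNA fell by 0.70 on the log2 scale in SH2 (SE 0.14, adjusted p 0.000670, edgeR) and by 0.62 in SH3 (SE 0.14, adjusted p 0.00213, edgeR). Footprints of ERRFI1 stood at 179, 195 and 161 CPM in SC, 171, 132 and 143 CPM in SH2, and 133, 134 and 121 CPM in SH3. SH3 lay below SC, and SH2 replicate 1 lay within the SC range. The footprint change of ERRFI1 was -0.46 in SH3 (SE 0.14, adjusted p 0.0172, edgeR), a call lost without SH3 replicate 3 (adjusted p 0.0832), and -0.26 in SH2 (SE 0.14, adjusted p 0.138, edgeR).

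LRIG1, the membrane protein that limits ERBB receptors and MET, was called in SH3 alone among the comparisons with SC. LRIG1 RNA stood at 17, 16.4 and 14.4 CPM in SC, at 15.1, 17.2 and 16.6 CPM in SH2, and at 28.7, 20.1 and 17.6 CPM in SH3. SH3 replicate 1 was well above the other SH3 libraries, and SH3 replicate 3 lay close to the highest SC library. The RNA change of LRIG1 was 0.48 in SH3 (SE 0.16, adjusted p 0.0226, edgeR) and 0.03 in SH2 (SE 0.16, adjusted p 0.869, edgeR). Without SH3 replicate 1 the SH3 change was 0.20 (adjusted p 0.238), and without SC replicate 3 the adjusted p was 0.0896. Footprints of LRIG1 stood at 6.01, 10.5 and 9.41 CPM in SC, 12.2, 9.32 and 10.0 CPM in SH2, and 18.7, 15.1 and 10.5 CPM in SH3, from 25 to 53 counts. The groups overlapped. The footprint change was 0.79 in SH3 (SE 0.28, adjusted p 0.0383, edgeR), a call lost without SC replicate 1, SC replicate 3, SH3 replicate 1 or SH3 replicate 2 (adjusted p 0.0555 to 0.134), and 0.32 in SH2 (SE 0.28, adjusted p 0.380, edgeR).

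**Figure D2:**
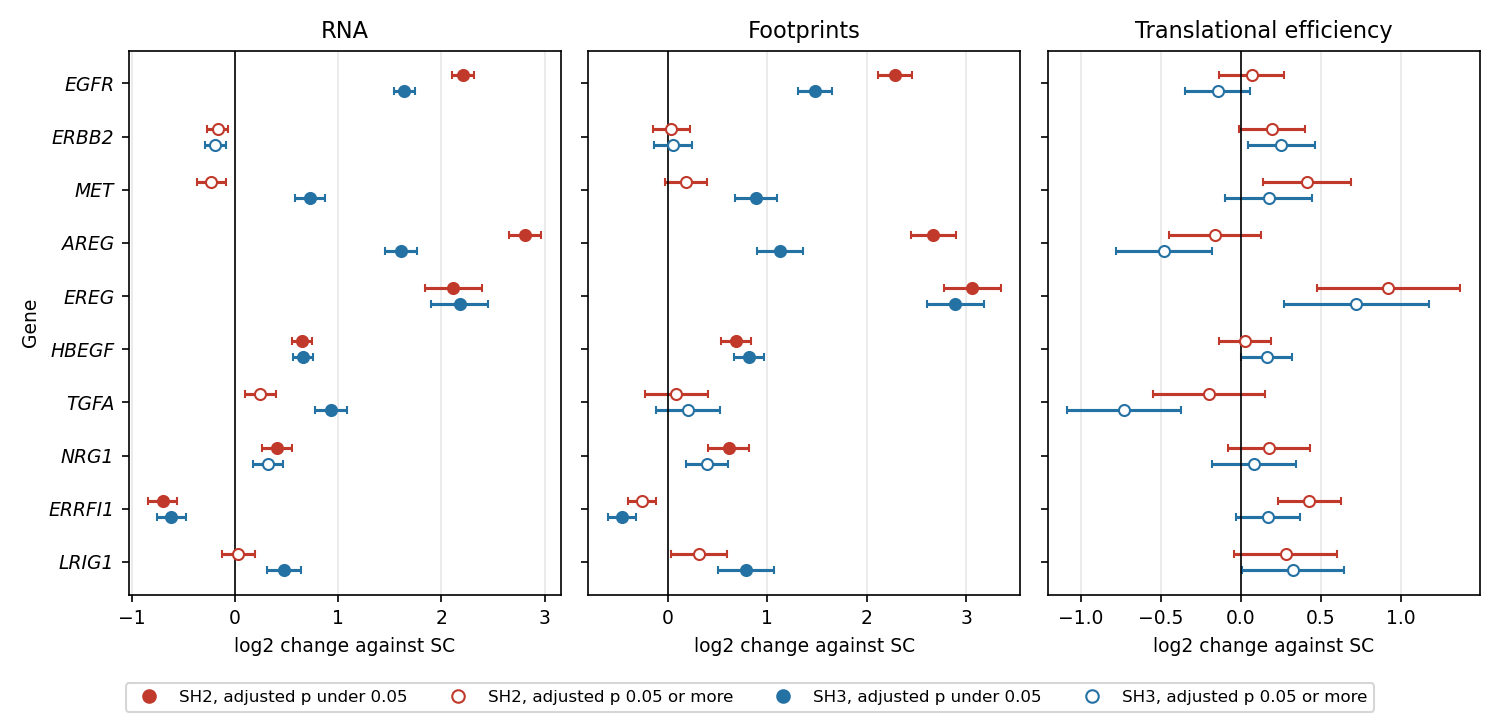
Log2 change against SC of the 10 genes in RNA, footprints and translational efficiency, with bars of 1 SE; filled points passed an adjusted p of 0.05. EGFR, AREG, EREG and HBEGF are filled and positive for both hairpins in RNA and footprints, and no point is filled in translational efficiency.

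The promoters of EGFR, AREG and EREG, the members with the highest changes in both hairpins, are shown because these genes rose together in RNA and footprints. Each sequence is the 250 bases before the annotated start, 5′ to 3′ on the gene's strand, from NCBI RefSeq on GRCh38.p14: chr7:55018767-55019016 (+) for EGFR, chr4:74444886-74445135 (+) for AREG and chr4:74364895-74365144 (+) for EREG. Capitals mark matches on either strand to 4 motifs that were searched for, namely the TATA box TATAAA, the cAMP response element TGACGTCA, the AP-1 element TGANTCA and the GC box GGGCGG.
EGFR: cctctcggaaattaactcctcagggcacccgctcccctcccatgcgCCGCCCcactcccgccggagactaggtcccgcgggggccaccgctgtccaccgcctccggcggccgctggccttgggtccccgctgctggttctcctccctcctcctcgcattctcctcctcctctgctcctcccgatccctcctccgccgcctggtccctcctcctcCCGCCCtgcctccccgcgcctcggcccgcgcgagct
AREG: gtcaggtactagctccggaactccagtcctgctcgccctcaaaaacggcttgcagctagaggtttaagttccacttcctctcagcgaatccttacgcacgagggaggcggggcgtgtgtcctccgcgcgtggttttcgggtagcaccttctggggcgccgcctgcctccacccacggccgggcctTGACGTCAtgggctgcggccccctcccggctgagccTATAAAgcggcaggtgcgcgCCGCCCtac
EREG: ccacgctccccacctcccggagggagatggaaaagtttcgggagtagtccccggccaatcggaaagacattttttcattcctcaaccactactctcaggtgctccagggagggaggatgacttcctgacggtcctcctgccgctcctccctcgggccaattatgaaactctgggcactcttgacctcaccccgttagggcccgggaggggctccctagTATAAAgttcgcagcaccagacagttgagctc
AREG and EREG are neighbours on chromosome 4, with starts 79991 bases apart on the same strand. The EGFR sequence holds 73.6% G and C, that of AREG 65.2% and that of EREG 58.0%, beside a median of 58.0% over 34943 promoters. A TATA box match was found 29 to 24 bases before the AREG start and 32 to 27 bases before the EREG start, and such a match is in 10.8% of all promoter sequences of this length. AREG also holds the cAMP response element, 65 to 58 bases before its start, which 1.63% of promoters hold. Of the 9 members with a promoter sequence, 7 hold the GC box (EGFR, MET, AREG, HBEGF, TGFA, ERRFI1 and LRIG1), against 42.5% of all promoters. The motif is made of G and C only, and these 7 sequences hold 65.2% (AREG) to 76.4% (HBEGF) G and C, above the median of 58.0%. They include ERRFI1, which fell in RNA, and MET, TGFA and LRIG1, which were not called in SH2. A link of the motif with the changes was not tested. The AP-1 pattern TGANTCA, with any base at N, was matched in ERBB2 alone among the 9, by the letters TGATTCA. A match to this pattern is in 6.59% of promoters.

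The hairpins differed from each other in 5 members in RNA, where 39.3% of all genes tested were called between SH2 and SH3 (18.9% higher in SH2 and 20.4% lower), and in 3 members in footprints, where 23.8% were called (12.1% higher and 11.6% lower). AREG RNA was higher in SH2 than in SH3 by 1.20 on the log2 scale (SE 0.15, adjusted p 2.99e-05, edgeR) and its footprints by 1.54 (SE 0.22, adjusted p 0.000135, edgeR). EGFR RNA was higher in SH2 by 0.57 (SE 0.10, adjusted p 0.000652, edgeR) and its footprints by 0.80 (SE 0.17, adjusted p 0.00277, edgeR). MET went the other way, with a difference of -0.96 in RNA (SE 0.14, adjusted p 0.000177, edgeR) and of -0.70 in footprints (SE 0.21, adjusted p 0.0243, edgeR). The footprint call for MET was lost without SH2 replicate 1 or 3, or without SH3 replicate 1 or 2 (adjusted p 0.0553 to 0.126). TGFA RNA was lower in SH2 than in SH3, by a difference of -0.68 (SE 0.15, adjusted p 0.00275, edgeR). LRIG1 RNA was likewise lower in SH2, by -0.44 (SE 0.16, adjusted p 0.0409, edgeR), and this call was lost without any one of the 3 SH2 replicates, SH3 replicate 1 or SH3 replicate 2 (adjusted p 0.0553 to 0.314), with a difference of -0.19 without SH3 replicate 1. For EREG the hairpins differed by -0.06 in RNA (SE 0.25) and 0.17 in footprints (SE 0.24), and for HBEGF by -0.02 (SE 0.10) and -0.13 (SE 0.15), none of them called.

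Translational efficiency, the footprint change less the RNA change in a single model of all 18 libraries, was called in 0 of the 10 members by edgeR in SH2 and in SH3, and 0 were called by DESeq2, which gave an adjusted p for 10 members in SH2 and for 9 in SH3 (all but TGFA). Of all 12531 genes tested, 3.90% were called under SH2, of which the higher ones make up 1.44% of all genes and the lower ones 2.46%. Under SH3 0.686% were called, 0.375% with a higher and 0.311% with a lower value. Between the hairpins 0.0160% were called, and likewise 0 members. At an unadjusted p under 0.05, edgeR passed 1 member in SH2 (ERRFI1), 0 in SH3 and 0 between the hairpins. In SH2 ERRFI1 had the lowest p among the members, with a change of 0.43 (SE 0.20, adjusted p 0.257, edgeR). Its change in SH3 was 0.17 (SE 0.20, adjusted p 0.789, edgeR). The highest values were those of EREG, at 0.92 in SH2 (SE 0.45, adjusted p 0.283, edgeR) and 0.72 in SH3 (SE 0.45, adjusted p 0.552, edgeR). Without 1 replicate these ran from 0.51 (without SH2 replicate 1) to 1.44 (without SH2 replicate 2) and from 0.41 (without SC replicate 2) to 1.12 (without SC replicate 1). For EGFR the change was 0.07 in SH2 (SE 0.20) and -0.14 in SH3 (SE 0.20). TGFA had the lowest value, -0.73 in SH3 (SE 0.36, adjusted p 0.404, edgeR), which was -0.018 without SC replicate 1. The members' median change in translational efficiency was 0.19 in SH2 and 0.17 in SH3, against medians over all genes of -0.02 and -0.04.

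The ratio of mean footprint CPM to mean RNA CPM describes the same quantity per group, in relative units, since the library kinds were scaled separately. For EGFR the ratio was 0.931 in SC, 0.975 in SH2 and 0.831 in SH3, with ranges over the 9 pairings of an RPF with an IN library of 0.736 to 1.23, 0.797 to 1.26 and 0.713 to 0.954. The 3 ranges overlap. For EREG it was 1.44 in SC, 2.88 in SH2 and 2.40 in SH3, and the ranges of 0.920 to 2.73, 1.27 to 5.70 and 1.58 to 3.68 overlap as well. HBEGF stood at 1.71, 1.76 and 1.92, AREG at 1.55, 1.42 and 1.13, and MET at 1.08, 1.42 and 1.20. TGFA stood at 0.805, 0.757 and 0.491. ERRFI1 had the lowest ratios of the members, 0.317 in SC, 0.429 in SH2 and 0.353 in SH3. Its SC value lay at the 9.23rd percentile of the genes with tested footprints. The counting method is not given, so ratios of different genes may differ for reasons other than translation.

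**Figure D3:**
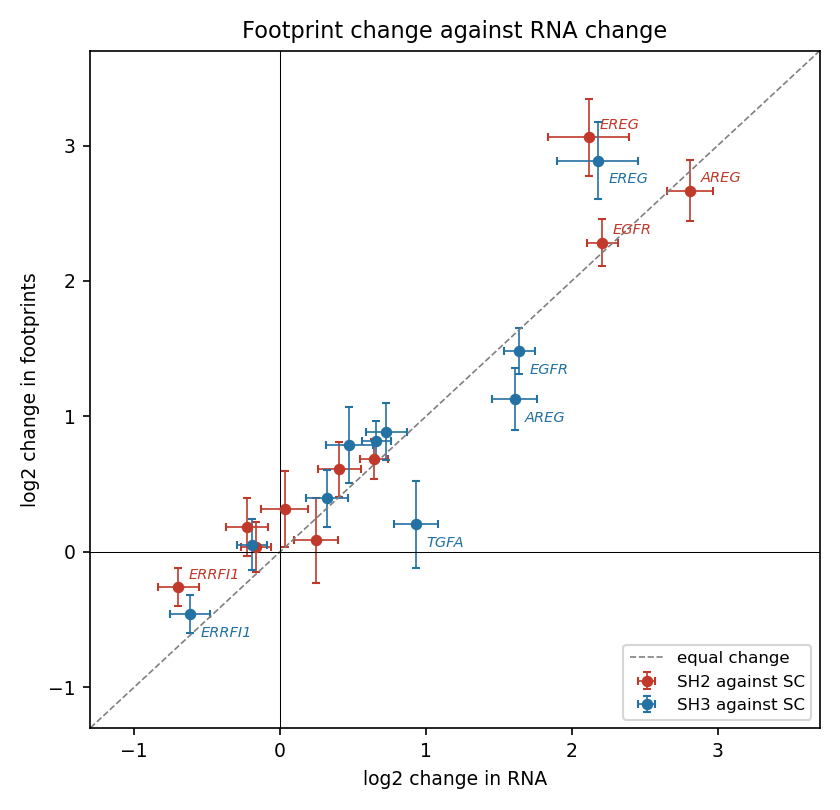
Log2 footprint change against log2 RNA change of the 10 genes in each hairpin, with bars of 1 SE; the dashed line marks equal change. EREG lies above the line in both hairpins (3.06 against 2.12 in SH2), EGFR close to it (2.28 against 2.21 in SH2), and TGFA in SH3 below it (0.20 against 0.93).

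A wider list of 59 genes of these pathways, also chosen with earlier results known, was examined by role. Of them 51 could be tested in RNA, and 22 rose and 12 fell under SH2, and under SH3 20 rose and 11 fell, while 17 and 20 did not pass, beside 61.4% (SH2) and 53.0% (SH3) of all genes called. Called in the same direction under both hairpins were 33.3% of them, beside 37.9% of all genes, and their median change was 0.24 in SH2 and 0.15 in SH3. In footprints 19 of 47 rose and 7 fell in SH2, beside 21.0% and 23.2% of all genes, and 16 rose and 4 fell in SH3, beside 16.9% and 19.0%. Translational efficiency was called by edgeR in 3 of 50 genes in SH2 (2 higher and 1 lower), beside 3.90% of all genes, in 0 of 50 in SH3, beside 0.686%, and in 0 of 50 between the hairpins. At an unadjusted p under 0.05 edgeR passed 6, 5 and 3 of these genes, and DESeq2 called 3, 3 and 1, of 47, 40 and 41 with an adjusted p. The list includes CD44, which is also among the mesenchymal markers above.

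Among the other receptors, ERBB4 was not tested in RNA. ERBB3, the partner of ERBB2 for NRG1, fell in SH2 RNA, from 16.5, 13.2 and 12.8 CPM in SC to 11.6, 5.08 and 5.51 CPM, a change of -0.95 (SE 0.27, adjusted p 0.00754, edgeR). Its SH3 change was -0.43 (SE 0.26, adjusted p 0.189, edgeR). MST1R, a receptor related to MET, fell in SH3 RNA, from 11.8, 11.9 and 9.87 CPM in SC to 7.80, 7.47 and 7.16 CPM, a change of -0.58 (SE 0.14, adjusted p 0.00330, edgeR), and its SH2 change was -0.06 (SE 0.14). Of the other ligands, EGF, NRG2 and BTC were tested in RNA, and EPGN, NRG3, HGF and MST1 did not pass the filter on low counts. The symbol NRG4 was not found in the deposited gene table. EGF RNA rested on few counts, 28 to 48 in SC, 24 to 42 in SH2 and 3 to 18 in SH3, with changes of -1.91 in SH3 (SE 0.47, adjusted p 0.00348, edgeR) and -0.24 in SH2 (SE 0.39, adjusted p 0.612, edgeR). NRG2 changed by 1.35 in SH2 (SE 0.34, adjusted p 0.00328, edgeR) and by 0.65 in SH3 (SE 0.35, adjusted p 0.134, edgeR). It also rested on few counts, 28 to 52 in SC, 54 to 160 in SH2 and 56 to 80 in SH3. SH2 replicate 1 (2.12 CPM) lay within the SC range for NRG2 (1.14 to 2.14 CPM). BTC was not called, at 0.32 (SE 0.67) and 1.36 (SE 0.60).

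Ligand sheddases and processing factors counted 4 risen and 2 fallen of 8 tested in each hairpin, a number of calls to be read against the 61.4% and 53.0% of all genes called. ADAM10, a protease that cuts the precursors of some EGFR ligands, stood at 129, 121 and 101 CPM in SC RNA, 241, 244 and 223 CPM in SH2 and 169, 151 and 163 CPM in SH3. It rose by 1.01 in SH2 (SE 0.10, adjusted p 1.80e-06, edgeR) and 0.46 in SH3 (SE 0.10, adjusted p 0.00174, edgeR). RHBDF1, an inactive rhomboid protein that guides the sheddase ADAM17, stood at 28.8, 24.8 and 24.3 CPM in SC, 56.5, 61.8 and 65.3 CPM in SH2 and 49.2, 51.6 and 52.0 CPM in SH3. Its changes were 1.24 (SE 0.10, adjusted p 3.39e-07, edgeR) and 0.97 (SE 0.10, adjusted p 4.79e-06, edgeR). Neither gene's hairpin libraries overlapped SC. Other genes of this role did not follow ADAM10 and RHBDF1. In the order SC, SH2, SH3, mean ADAM17 RNA was 53.5, 55.5 and 80.9 CPM, and its SH2 libraries overlapped SC. Mean PLAU RNA was 270, 162 and 188 CPM, with all hairpin libraries below SC. For SPINT2 it was 179, 115 and 247 CPM, with SH2 below SC and SH3 above it.

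Among adaptors and proximal effectors, 2 of 14 rose and 4 fell in SH2, a smaller share called than the 61.4% of all genes, and 6 rose and 4 fell in SH3, where 53.0% of all genes were called. PTPN11, the phosphatase SHP2 that carries receptor signals toward RAS, stood at 386, 391 and 402 CPM in SC RNA, 108, 145 and 118 CPM in SH2 and 235, 230 and 228 CPM in SH3. It fell by 1.67 (SE 0.11, adjusted p 3.97e-08, edgeR) and by 0.77 (SE 0.10, adjusted p 4.28e-05, edgeR) on the log2 scale. The groups were separate, with SH3 between SC and SH2. PTPN11 footprints fell by 1.76 in SH2 (SE 0.14, adjusted p 4.05e-07, edgeR) and by 0.69 in SH3 (SE 0.14, adjusted p 0.00136, edgeR). STAT3, a transcription factor activated by these receptors, rose by 0.54 in SH2 (SE 0.10, adjusted p 0.000408, edgeR) and 0.74 in SH3 (SE 0.10, adjusted p 4.69e-05, edgeR).

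Factors that damp receptor signalling counted 9 risen and 5 fallen of 16 tested in SH2, where 61.4% of all genes were called, and 5 risen and 3 fallen in SH3, a share close to the 53.0% of all genes called there. EPN1, an adaptor of receptor endocytosis, stood at 88.0, 191 and 147 CPM in SC RNA, 333, 328 and 400 CPM in SH2 and 333, 359 and 341 CPM in SH3. Its SC libraries spread widely and lay below all hairpin libraries, and the changes were 1.32 (SE 0.20, adjusted p 6.09e-05, edgeR) and 1.28 (SE 0.20, adjusted p 0.000119, edgeR). PTPRK, a receptor-type tyrosine phosphatase, rose by 0.95 in SH2 (SE 0.12, adjusted p 1.22e-05, edgeR) and 0.85 in SH3 (SE 0.12, adjusted p 5.24e-05, edgeR). Other genes of this role went down under both hairpins, with all hairpin libraries below SC. In the order SC, SH2, SH3, mean RNA was 141, 68.7 and 115 CPM for PTPN1, 364, 255 and 268 CPM for PTPN12, and 72.7, 54.5 and 53.7 CPM for STAM. Of the 8 partners of MET, 6 rose in SH2 and 5 in SH3, and in each hairpin the others were not called. Only 3 of these genes were called under both hairpins. Of all genes, 31.1% were called higher in SH2 and 27.8% in SH3. NRP1, a co-receptor, stood at 248, 260 and 219 CPM in SC RNA, 604, 719 and 583 CPM in SH2 and 423, 399 and 356 CPM in SH3. NRP1 rose by 1.39 (SE 0.11, adjusted p 2.59e-07, edgeR) and 0.70 (SE 0.11, adjusted p 0.000135, edgeR). ITGB4, the integrin beta 4 subunit, rose by 1.15 in SH2 (SE 0.10, adjusted p 6.13e-07, edgeR) and 0.95 in SH3 (SE 0.10, adjusted p 6.12e-06, edgeR).

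**Figure D4:**
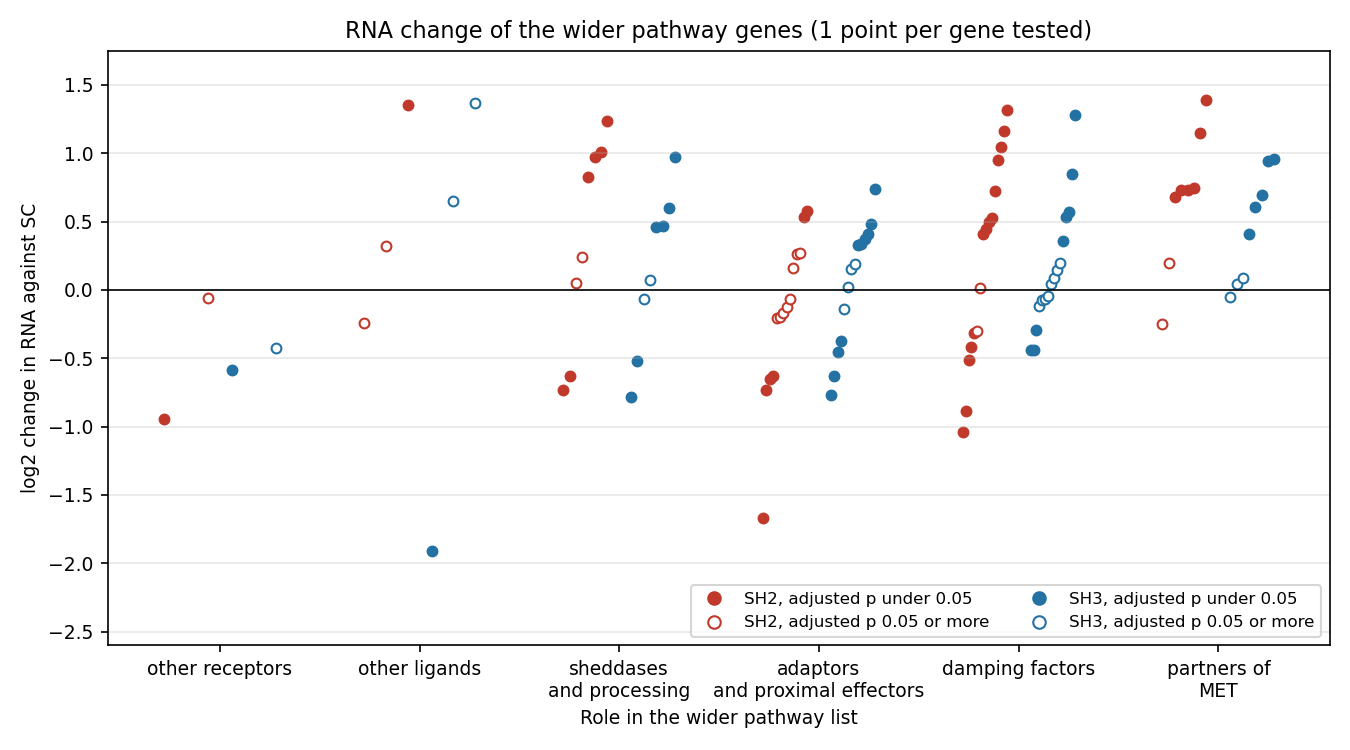
Log2 RNA change against SC of the 51 tested genes of the wider list, by role, with 1 point per gene and hairpin; filled points passed an adjusted p of 0.05. Points lie on both sides of 0 in most roles, and the called partners of MET all lie above it (6 in SH2 and 5 in SH3, with 3 genes called in both).

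The RNA patterns most like that of EGFR over the 9 IN libraries, by Pearson's r of log2 CPM, were those of ITGA3 (r 0.997, Spearman's rho 0.983), IRF1 (0.997 and 0.917) and GRINA (0.995 and 0.933). ITGA3, the integrin alpha 3 subunit, changed by 1.69 in SH2 and 1.32 in SH3, and IRF1, an interferon-regulated transcription factor, by 1.70 and 1.26. For MET they were HPS3 (r 0.979, rho 0.967), BAZ1A (0.977 and 0.950) and FCHO2 (0.974 and 0.967), with changes of -0.08, -0.10 and -0.12 in SH2 and 0.31, 0.39 and 0.60 in SH3. These values describe 9 libraries in 3 groups, so differences between groups dominate them, and the genes share the libraries.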

How the data were processed

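Cytoplasmic RNA (IN) and ribosome footprints (RPF) were measured in 18 libraries, 3 per group and kind, grouped by the labels. The deposited table holds raw read counts per gene from the authors, normalized signal (counts divided by a size factor, per the file headers), and log2 fold changes and p-values of the authors' DESeq2 comparisons, per the file headers. Bowtie 1.2.2 and DESeq2 are named in the submitters' processing notes, and the genome build, annotation and counting method are not given in the sources used here, nor are the rules for reads that match several places or for strand. Columns named RD hold the same values for SH2 and SH3 in all 17017 genes and were not used. All columns of per-sample values were mapped to samples, and each was counted as a separate library, since replicates of a group differed by more than counting noise (chi-square over its degrees of freedom 3.55 to 58.7). SC IN replicate 1 stood apart, at 58.7 with replicate 2 and 51.2 with replicate 3, while SC IN replicates 2 and 3 gave 12.0. Its 10 highest genes held 12.3% of its counts, against 8.44% and 8.98% in SC IN replicates 2 and 3.

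The counts were tested with edgeR 4.0.16 in R 4.3.3. The steps were filterByExpr (minimum count 10, minimum total 15), TMM scaling, glmQLFit and glmQLFTest, two-sided, with Benjamini-Hochberg adjustment over all genes tested and a threshold of 0.05. RNA was fitted over 9 IN libraries, footprints over 9 RPF libraries, and translational efficiency as an interaction contrast over 18. SE was taken as the size of the log2 change over the root of F. The common biological coefficient of variation was 11.6% in RNA and 15.1% in footprints. The scripts were tested on simulated data. Alternatives were DESeq2 1.42.0 (its size factors in edgeR, and its Wald test), plain library totals, no filter, only the groups compared, the replicate number as a block, and leaving out each replicate.

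The members and the pathway and marker lists were chosen with earlier results of these data known. Named genes are all members, FBL, every receptor and ligand of the wider list, in each other role the 2 genes with the lowest larger adjusted p among those called alike under both hairpins, and the 3 genes most correlated with EGFR and with MET. Levels of ADAM17, PLAU, SPINT2, PTPN1, PTPN12 and STAM were added outside this rule. Levels were not compared between genes, since no gene length was used. Promoter sequences matched 9 of 10 members in RefSeq's table, by symbol.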

Additional observations from a re-analysis of the deposited data

Results flagged for a closer look

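The results below are those in which the effect of SH2 differed from that of SH3 by edgeR's test of the difference itself (adjusted p under 0.05), as SH2 change minus SH3 change on the log2 scale. In RNA the difference was 1.20 for AREG, 0.57 for EGFR, -0.44 for LRIG1, -0.96 for MET and -0.68 for TGFA. In footprints it was 1.54 for AREG, 0.80 for EGFR and -0.70 for MET. AREG and EGFR rose under both hairpins and by more in SH2, while MET, TGFA and LRIG1 RNA was called against SC in SH3 and not in SH2. FBL RNA stood at 1.26, 4.52 and 11.2 CPM in SH2 and at 3.36, 4.15 and 2.95 CPM in SH3, groups that overlap, and was not called between the hairpins (log2 difference 0.72, adjusted p 0.242, edgeR).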

How the results depend on the processing

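Over 90 changes of members (10 genes in 9 comparisons) and 1079 alternative values, 1007 kept their direction and side of the threshold, 24 lost the call, 5 gained one and 43 changed direction. Of 34 called changes, 27 kept the call under every alternative and 0 changed direction; the other 7 are NRG1 in SH2 RNA and footprints, LRIG1 in SH3 RNA and footprints and in RNA between the hairpins, ERRFI1 in SH3 footprints and MET footprints between the hairpins, lost as given above without single replicates. LRIG1 in SH3 was also lost with only the groups compared (adjusted p 0.0544 in RNA and 0.0548 in footprints). NRG1 RNA in SH3 gained a call with plain library totals (adjusted p 0.0305), with no filter (0.0455), with only the groups compared (0.0304) and without SC replicate 2 (0.0484). Plain library totals moved the median of all genes to 0.11 in SH2 RNA and 0.12 in SH3 RNA, and turned the uncalled translational efficiency changes in SH2 to -0.0097 for EGFR and -0.049 for HBEGF. The other changes of direction came from leaving out 1 replicate, in uncalled results, with these ranges. RNA in SH2 ran from -0.038 to 0.085 for LRIG1. RNA between the hairpins ran from -0.031 to 0.11 for ERBB2, -0.26 to 0.19 for EREG, -0.055 to 0.035 for HBEGF and -0.086 to 0.23 for NRG1. Footprints in SH2 ran from -0.12 to 0.18 for ERBB2, -0.022 to 0.38 for MET and -0.15 to 0.61 for TGFA, in SH3 from -0.10 to 0.20 for ERBB2 and -0.033 to 0.74 for TGFA, and between the hairpins from -0.13 to 0.12 for ERBB2 and -0.29 to 0.033 for TGFA. Translational efficiency in SH2 ran from -0.17 to 0.18 for EGFR, -0.022 to 0.35 for ERBB2, -0.49 to 0.36 for AREG, -0.038 to 0.074 for HBEGF, -0.53 to 0.51 for TGFA and -0.17 to 0.49 for NRG1. In SH3 it ran from -0.81 to 0.041 for AREG and -0.091 to 0.25 for NRG1, and between the hairpins from -0.026 to 0.32 for EGFR, -0.20 to 0.061 for ERBB2, -0.20 to 0.72 for EREG, -0.25 to 0.41 for NRG1 and -0.20 to 0.076 for LRIG1. The cause was not tested. Over all genes, footprint calls between the hairpins numbered 2459, and 1541 to 2104 without 1 replicate (1541 without SH3 replicate 2). Translational efficiency calls numbered 489 in SH2 (910 by DESeq2's Wald test, 184 with only the groups compared, 110 to 555 without 1 replicate), 86 in SH3 (355, 46, and 10 to 244) and 2 between the hairpins (229, 36, and 0 to 1, with 35 when no filter was used). The 244 calls in SH3 came without SC replicate 1, and the 10 without SC replicate 3.

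The replicate numbers were not taken to pair the libraries, since not every pair correlated over 0.1. Deviations from the group means of same-numbered libraries correlated at -0.08 to 0.43 between groups in IN (7 of 9 pairs over 0.1) and -0.12 to 0.31 in RPF (5 of 9), and at -0.49 to 0.50 between IN and RPF of one number (5 of 9). The 3 pairs of SC with SH2 alone all passed, at 0.30 to 0.36 in IN and 0.25 to 0.30 in RPF. Of 9 RPF libraries, 5 correlated best with the IN library of their own number; in SC and SH2, RPF replicates 1 and 2 each correlated best with the IN library of the other number (r 0.458 to 0.576). With the replicate number as a block, NRG1 RNA in SH3 was called (change 0.33, adjusted p 0.0174) and no other member's call changed; a block that joined IN and RPF of the same group and number left 191, 23 and 0 calls of translational efficiency in SH2, in SH3 and between the hairpins, and given the correlations above it may join libraries of different lysates in SC and SH2. Depth limits the footprints of TGFA, LRIG1 and EREG most, which rest on 14 to 88 counts, 25 to 53 counts and, in SC, 18 to 66 counts.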
